A study of Mus musculus with 26 samples.

Results

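The cells described here are the choroidal endothelial cells (ECs) that the authors' annotation places in cluster 3 of 13, the cluster with an intermediate level of Kdr, the gene of vascular endothelial growth factor receptor 2. They were taken by that cluster number alone and come to 979 of 7565 cells: 430 of the 3637 cells of the B6129PF1/J library, or 11.8% (exact Clopper-Pearson 95% interval 10.8 to 12.9), and 549 of the 3928 cells of the C57BL/6J library, or 13.98% (12.9 to 15.1). They were the most numerous of the 3 EC clusters. Cluster 2, with the highest Kdr level, held 370 and 403 cells, and cluster 4, with the lowest, held 63 and 72. Values given in pairs are for B6129PF1/J first and C57BL/6J second.

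Both libraries were made by droplet-based single-cell RNA sequencing of retinal pigment epithelium (RPE) and choroid from untreated mice 3 months old. One strain was the inbred C57BL/6J and the other the hybrid B6129PF1/J, and neither carried an engineered allele. Each library pooled tissue of 1 male and 1 female eye, and nucleated (Hoechst+), viable (TO-PRO-3-) cells had been sorted beforehand with no selection for ECs. There was 1 library per strain, so strain, library and mice cannot be told apart, no difference was tested, and all intervals cover counting error only.

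The choroid feeds the outer retina. Its innermost layer, the choriocapillaris, is a sheet of wide capillaries whose ECs are perforated by fenestrae closed with diaphragms made of PLVAP, and it depends on VEGF signaling through KDR. Arteries enter and veins drain this sheet from the deeper choroid. Arterial ECs are usually known by connexins, Notch ligands and elastic matrix, and venous ECs by the transcription factor NR2F2, P-selectin and von Willebrand factor.

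Cluster 3 cells were about as deep as the other ECs, with a median of 4147 and 3430 unique molecular identifiers (UMIs, each standing for 1 captured transcript) against 4232.5 and 3460 in cluster 2 and 3915 and 2954 in cluster 4. Mitochondrial genes took 2.66% and 2.57% of the UMIs of the median cluster 3 cell, against 1.79% and 2.07% in cluster 2. Over whole libraries the median cell had 3881 and 3174.5 UMIs. The libraries shared 22 barcodes, 2 of them on cluster 3 cells in each library. UMIs of both Xist and Ddx3y, which 1 mouse cell does not normally make together, were found in 5 and 6 cluster 3 cells, or 1.16% and 1.093%, against 0.962% and 0.840% of all cells.

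Levels are given as UMIs of a gene per 10,000 UMIs summed over the cells of a cluster. All 4 given markers were detected in cluster 3, of which Cdh5 and Flt1 were at similar or higher levels than in the other EC clusters. Cdh5, which encodes VE-cadherin (GRCm38 chr8:104101625-104144511, plus strand), stood at 4.64 and 4.12 in cluster 3, next to 4.0 and 3.76 in cluster 2 and 4.46 and 4.17 in cluster 4. Flt1, the VEGF receptor 1 gene (chr5:147561604-147726011, minus strand), stood at 16.5 and 13.9, close to the 15.7 and 14.4 of cluster 2 and above the 7.24 and 7.46 of cluster 4. So Cdh5 barely separated the clusters, while Flt1 set clusters 2 and 3 apart from cluster 4.

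Kdr (chr5:75932827-75978458, minus strand) fell between its neighbors, as the cluster's name says. Its level was 8.86 (exact Poisson 95% interval 8.49 to 9.24) and 6.27 (5.97 to 6.57) in cluster 3, 16.4 and 14.01 in cluster 2, and 0.611 and 0.907 in cluster 4. That level leans on deep cells: thinned to 1700 UMIs per cell, Kdr stood at 5.80 and 4.30 in cluster 3 and at 15.7 and 13.8 in cluster 2. Plvap, the fenestral diaphragm gene (chr8:71497765-71511752, minus strand), stood at 28.8 (28.1 to 29.5) and 28.0 (27.4 to 28.7), against 73.8 and 77.97 in cluster 2 and 2.02 and 3.17 in cluster 4. Cluster 3 thus held 0.390 and 0.359 times the Plvap level of cluster 2, and 14.3 and 8.83 times that of cluster 4.

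The remaining given markers mark cluster 3 off from cluster 2. Mgp encodes matrix Gla protein, an inhibitor of calcification and BMP signaling (chr6:136872435-136875823, minus strand). It stood at 47.2 (46.3 to 48.1) and 36.3 (35.6 to 37.0) in cluster 3, at 3.04 and 4.88 in cluster 2 and at 97.6 and 112 in cluster 4. Vwf, the von Willebrand factor gene (chr6:125546774-125686679, plus strand), stood at 4.16 (3.91 to 4.43) and 2.98 (2.78 to 3.19) in cluster 3, at 0.0735 and 0.115 in cluster 2 and at 4.03 and 2.66 in cluster 4. For Vwf, cluster 3 lay as high as cluster 4, with ratios of 1.03 (exact conditional interval 0.860 to 1.25) and 1.12 (0.898 to 1.41). Mgp is not endothelial alone: its highest level outside the ECs was 156 and 133, in cluster 6, one of the stromal clusters.

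**Figure D1:**
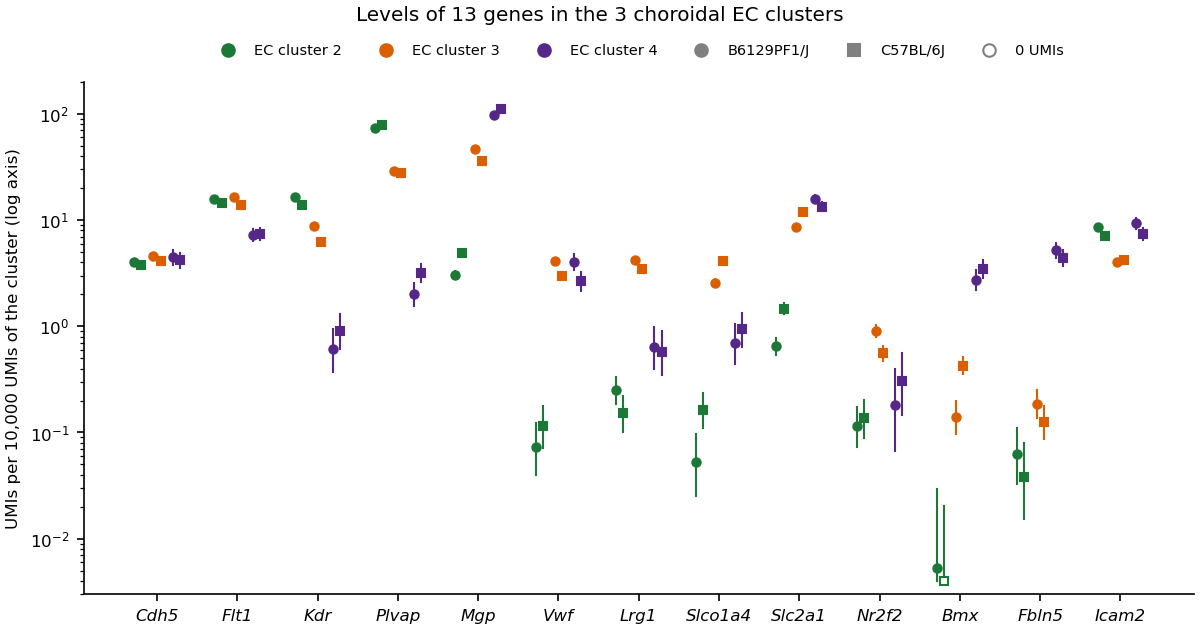
Level of 13 genes (UMIs per 10,000 UMIs of the cluster, log axis) in the 3 EC clusters, with circles for B6129PF1/J, squares for C57BL/6J, exact Poisson 95% intervals and open symbols for 0 UMIs. Cluster 3 lies between the others for Kdr, Plvap and Mgp, level with cluster 4 for Vwf, above both for Lrg1, Slco1a4 and Nr2f2, and below both for Icam2.

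To see where cluster 3 lay between the others, genes were taken that had at least 1 UMI per 10,000 in the higher and at least 5 times the level of the lower of clusters 2 and 4, in both libraries. The choice did not use cluster 3 levels, although the clustering itself had used every gene. This gave 56 genes higher in cluster 2 (3.43% of 1634), called capillary axis genes, and 63 higher in cluster 4 (4.21% of 1498), called large-vessel axis genes. The names stand only for the direction. Cluster 3 was between clusters 2 and 4 in both libraries for 53 of the 56 and 56 of the 63, against 30% of the 3002 genes with a mean of at least 0.5 UMIs per 10,000 over the 3 clusters. A gap of at least 5 times leaves wide room between the clusters, so this contrast follows in part from the choice of genes.

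Capillary axis genes were reduced to a broadly similar degree. Counting 0% as the level of cluster 4 and 100% as that of cluster 2, their median position was 37.2% and 33.6%, with an interquartile range from 30.1 to 50.2% and from 25.6 to 43.7%. Among the 10 with the highest level in cluster 2, Plpp1, a lipid phosphate phosphatase gene, stood at 21.1 and 20.3 in cluster 3 against 49.1 and 46.8 in cluster 2. Emcn, which encodes the sialomucin endomucin, stood at 17.0 and 18.0 against 34.5 and 34.7. Rgcc, a cell cycle regulator gene, stood at 9.59 and 13.5 against 20.7 and 24.0, and Ramp3, a calcitonin receptor-modifying protein gene, at 5.68 and 4.07 against 12.6 and 8.98. Plpp3, Fam167b and Car8 lay between 29.4% and 33.7% of the way from cluster 4 to cluster 2 in both libraries.

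Some capillary genes departed from that. Esm1, an endothelial proteoglycan gene, was far down, at 0.995 and 0.954 in cluster 3 against 5.61 and 6.81 in cluster 2. Ihh, the Indian hedgehog gene, stood at 0.974 and 0.609 against 3.20 and 3.36, with 0 UMIs in cluster 4. Ctla2a, a cysteine protease inhibitor gene, lay near the level of cluster 2, at 16.5 and 19.4 against 18.0 and 16.8, with only 1.62 and 1.63 in cluster 4. Nrp2, a VEGF-C and semaphorin co-receptor gene, lay above both, at 2.26 and 1.73 against 1.46 and 1.08 in cluster 2.

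Large-vessel axis genes split. Their median position, counting 0% as cluster 2 and 100% as cluster 4, was 14.1% and 17.4%; 37 and 32 of the 63 genes lay under 20%, and 5 and 6 lay over 80%. The genes near cluster 2 included some genes of arteries and of elastic matrix. Others of these kinds lay further up, with Edn1 at 43.9% and 38.1%, Eln (elastin) at 39.9% and 34.8% and Sox17 at 22.6% and 26.3%. Bmx, a tyrosine kinase gene of arterial ECs, stood at 0.141 and 0.427 in cluster 3 against 2.75 and 3.48 in cluster 4, and Fbln5, the elastic fiber gene fibulin-5, at 0.187 and 0.126 against 5.19 and 4.41. Gkn3, known in arterial ECs, stood at 0.153 and 0.130 against 2.57 and 11.9, Gja4, a connexin gene, at 0.974 and 0.735 against 5.04 and 3.96, and Sema3g, a semaphorin gene, at 0.518 and 0.427 against 3.67 and 2.51. Stmn2 and Clu also stayed near the level of cluster 2, with Clu at 1.54 and 1.45 in cluster 3 against 1.71 and 1.54 in cluster 2 and 12.3 and 16.6 in cluster 4.

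Few genes came near cluster 4. Emp1, an epithelial membrane protein gene, stood at 10.4 and 7.02 in cluster 3 against 11.6 and 9.61 in cluster 4, and Tgm2, the transglutaminase 2 gene, at 2.50 and 2.19 against 2.87 and 2.36. Slc2a1, which encodes the glucose transporter GLUT1, stood at 8.58 and 11.8 in cluster 3, 15.8 and 13.4 in cluster 4 and 0.646 and 1.46 in cluster 2. Vwf reached the level of cluster 4, and Ptn exceeded it. Of the other abundant genes, Vim (vimentin) stood at 8.83 and 8.69 against 27.3 and 21.8 in cluster 4, Sox17, an arterial transcription factor gene, at 2.57 and 3.06 against 10.1 and 10.5, Ly6c1 at 4.30 and 5.65 against 19.9 and 18.5, Glul (glutamine synthetase) at 3.24 and 3.38 against 19.1 and 17.9, and Cytl1 at 1.04 and 1.32 against 13.6 and 18.9. Thinned to 1700 UMIs per cell, Cytl1 in cluster 3 stood at 1.67 and 1.66.

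**Figure D2:**
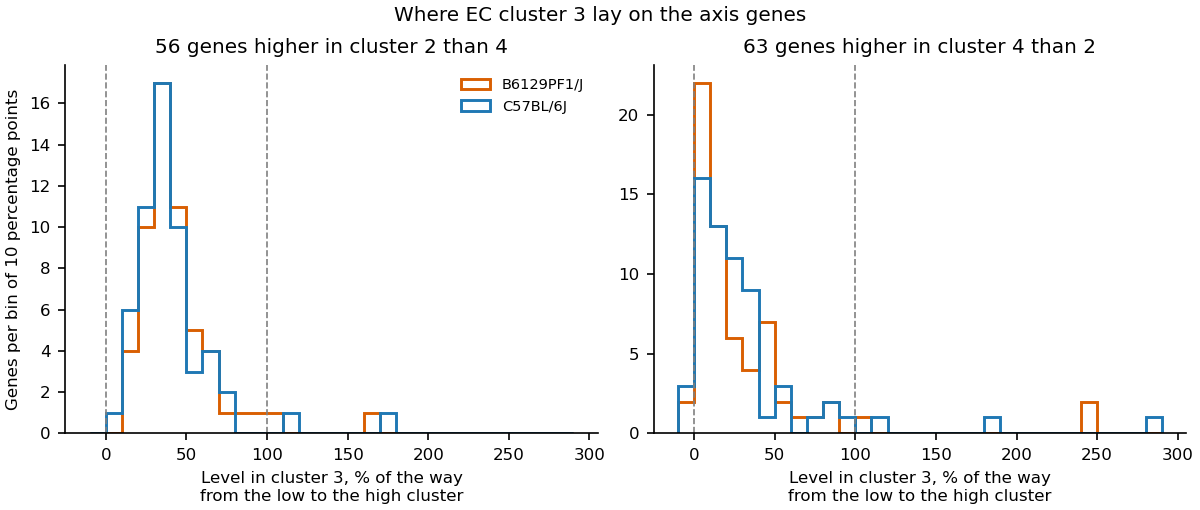
Number of axis genes per bin of 10 percentage points, by the level in cluster 3 as a percentage of the way from the cluster where the gene is low to the cluster where it is high, for 56 capillary (left) and 63 large-vessel (right) axis genes in both libraries; dashed lines mark the low and the high cluster. Capillary genes center below the midpoint, with medians of 37.2 and 33.6%, whereas large-vessel genes pile up near 0% and have a tail past 100%.

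A set of genes was higher in cluster 3 than in either neighbor. By the rule of at least 1.5 times the higher of clusters 2 and 4 in both libraries, with at least 1 UMI per 10,000 in cluster 3, 19 genes were called, or 1.22% of 1557. For 9 of the 19, cluster 3 was also the highest of all 13 clusters in both libraries. The choice of the 19 favors this, and no share over all tested genes is given beside it. The gene with the largest margin was Lrg1, which encodes leucine-rich alpha-2-glycoprotein 1, a modulator of endothelial TGF-beta signaling known in venules (chr17:56119678-56122001, minus strand). Lrg1 stood at 4.18 (3.92 to 4.44) and 3.47 (3.25 to 3.70) in cluster 3, at 0.252 and 0.153 in cluster 2 and at 0.642 and 0.574 in cluster 4. Cluster 3 held 1008 of the 1101 Lrg1 UMIs of the B6129PF1/J library and 936 of the 1022 of the C57BL/6J library.

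Net1, a guanine exchange factor gene, stood at 1.67 and 1.28 in cluster 3 against at most 0.397 in the other EC clusters. Slco1a4, an organic anion transporter gene of brain barrier ECs (chr6:141805440-141856199, minus strand), stood at 2.57 and 4.08 against 0.703 and 0.937 in cluster 4 and 0.0525 and 0.164 in cluster 2; RPE cells had 2.67 and 2.55. Tmsb10, which encodes the actin-binding thymosin beta-10, was the most abundant of the 19, at 11.9 and 15.3 against 3.66 and 5.43 in cluster 2. Among all clusters it was highest in hematopoietic cells in both libraries. Ptn, which encodes the growth factor pleiotrophin, stood at 4.36 and 4.79 against 1.99 and 1.87. Grrp1 stood at 5.09 and 4.69 against 2.32 and 2.63, Lef1, a transcription factor gene of the WNT pathway, at 1.397 and 1.83 against 0.642 and 0.725, and Cpe, carboxypeptidase E, at 1.77 and 1.77 against 0.611 and 0.786.

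Pim3, a kinase gene, stood at 5.80 and 5.48 in cluster 3 against 3.36 and 2.50 in cluster 2, and Akap12, a kinase anchoring protein gene, at 2.67 and 1.90 against 1.33 and 1.13. Ptpn14, a phosphatase gene, stood at 1.58 and 1.43, Tshz2 at 1.58 and 1.96, and Hmcn1, the basement membrane gene hemicentin 1, at 1.26 and 1.02, with no other EC cluster over 1.14 for any of them. Ablim1, Nrp2, Ppp1r10 and Efnb1, the ephrin-B1 gene, were also called.

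Rgs5, a G protein regulator gene typical of pericytes, was also called, and it behaved differently. Its level was 5.04 and 3.57 in cluster 3 against 1.45 and 1.49 in cluster 2, but 21 cells in each library held 91.9% and 85.4% of its cluster 3 UMIs. Outside the ECs, Rgs5 was highest at 95.9 in the stromal cluster 6 of B6129PF1/J and at 99.3 in the smooth muscle cluster of C57BL/6J. The summed level of 9 pericyte and smooth muscle markers was 6.32 and 5.34 in cluster 3, against 2.06 and 2.37 in cluster 2 and 1.89 and 2.33 in cluster 4, and of these only Rgs5 passed the minimum level. Acta2 stood at 0.195 and 0.627, Myh11 at 0.0456 and 0.111, and Pdgfrb at 0.531 and 0.315. Without the deepest 10% of cells, Rgs5 stood at 2.53 and 2.45 and was no longer called. The part of mural RNA in its cluster 3 level was not tested.

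In the opposite direction, 5 genes were below both neighbors by the same factor (0.394% of 1270). Icam2, an adhesion molecule gene of resting endothelium, stood at 4.02 and 4.19 in cluster 3 against 8.57 and 7.01 in cluster 2 and 9.35 and 7.46 in cluster 4. S100a6 (calcyclin) stood at 0.995 and 0.887 against 2.79 and 1.74 and against 6.78 and 4.71. Dll4, the Notch ligand gene of arterial and tip ECs, stood at 0.676 and 0.724 against 1.23 and 1.38 in cluster 2 and 1.34 and 1.39 in cluster 4. Smpdl3a stood at 2.64 and 2.95 and Fxyd5 at 4.13 and 4.23, each lower than in both other clusters. No member of the 5 reached 2 times in both libraries.

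Venous and arterial gene lists were then read gene by gene against clusters 2 and 4, counting a gene as higher or lower at 1.5 times in both libraries. Over all 3002 genes, 7.36% were higher and 5.73% lower in cluster 3 than in cluster 2, and 8.49% were higher and 5.63% lower than in cluster 4. Of 12 venous genes measured at this level, 5 were higher than in cluster 2 and 7 higher than in cluster 4, with 2 and 1 lower. Their median log2 ratio was 0.58 to cluster 2 and 1.197 to cluster 4, against -0.07 and -0.00122 over all genes. Of 17 arterial genes, 14 were lower than in cluster 4 and 1 was higher, with a median log2 ratio of -2.40, while 9 were higher and 2 lower than in cluster 2, with a median of 1.01 that exceeds the venous one. In summed level the arterial list stood at 25.3 and 21.7 in cluster 3, near the 24.97 and 22.0 of cluster 2, against 77.8 and 91.0 in cluster 4. That sum hides members that moved in opposite directions. The 9 higher than in cluster 2 include Edn1, at 3.03 and 3.04 against 0.268 and 0.126. Sox17, another, stood at 2.57 and 3.06 against 0.367 and 0.394. The 2 lower were Dll4 and Nrp1. The venous list summed to 43.9 and 43.6 in cluster 3, slightly under the 46.0 and 46.3 of cluster 2, and to 22.4 and 26.5 in cluster 4. Of these sums, Emcn alone made up 17.0 and 18.0 in cluster 3, 34.5 and 34.7 in cluster 2 and 5.38 and 4.81 in cluster 4. The other members together were highest in cluster 3. Emcn and Nrp2, both among the 7 venous genes higher than in cluster 4, are also capillary axis genes.

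The venous genes Selp and Sele were too low for that rule but had most of their UMIs in cluster 3. Selp, the P-selectin gene, had 93 UMIs in cluster 3 of 94 in the whole B6129PF1/J library, and 73 of 84 in C57BL/6J. Sele, the E-selectin gene, had 100 of 104 and 83 of 85. Both selectins let leukocytes roll on venules. They were seen in few cells: Selp in 10.5% and 5.10% of cluster 3 cells and Sele in 8.37% and 7.65%. Nr2f2 stood at 0.904 and 0.560 against 0.115 and 0.137 in cluster 2 and 0.183 and 0.302 in cluster 4. Ackr1, a chemokine receptor gene of postcapillary venules, had a level of 0.00414 in the B6129PF1/J cells and 0 UMIs in the C57BL/6J cells. The lymphatic genes Prox1 and Lyve1 stayed at or under 0.0373 in cluster 3.

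Whether capillary and large-vessel genes sat in the same cells was read from single cells. Plvap UMIs were found in 95.8% and 94.0% of cluster 3 cells, Mgp in 91.4% and 90.3%, Vwf in 67.7% and 58.1%, and Kdr in 64.4% and 56.5%. Plvap and Mgp were found together in 87.4% (exact interval 83.9 to 90.4) and 86.0% (82.8 to 88.8) of cluster 3 cells, against 39.5% and 40.0% in cluster 2 and 39.7% and 31.9% in cluster 4. Mgp is at high levels in stroma, and RPE cells, which should lack it, had an Mgp UMI in 51.4% and 38.8%, at a median depth of 5263 and 3406.5 UMIs, so a single Mgp UMI in cluster 2 is at background. With at least 3 UMIs of each gene the shares were 66.0% (61.4 to 70.5) and 58.8% (54.6 to 62.985) in cluster 3, 6.49% and 8.68% in cluster 2, and 12.7% and 15.3% in cluster 4.

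Vwf has little such background, since only 0.983% and 0.802% of RPE cells had a UMI of it. Plvap has more, with a UMI in 17.0% and 15.8% of RPE cells. Plvap and Vwf were found together in 65.1% (60.4 to 69.6) and 55.7% (51.5 to 59.9) of cluster 3 cells, against 3.24% and 3.97% in cluster 2 and 23.8% and 18.1% in cluster 4. Kdr and Vwf were found together in 41.9% and 33.7%, against 2.97% and 3.97% in cluster 2 and 12.7% and 13.9% in cluster 4. In each of these pairs the share in cluster 3 exceeded that in both neighbors. The order held when each cell was thinned to 1700 UMIs, where Plvap and Vwf stood at 37.2% and 30.8% in cluster 3, at 0.541% and 1.49% in cluster 2 and at 9.52% and 6.94% in cluster 4. Leaving out cells with both Xist and Ddx3y left 64.7% and 55.6%. Such shares depend on how common each gene is: Plvap was in 95.8% and 94.0% of cluster 3 cells and Vwf in 67.7% and 58.1%. They show that both genes occur in the same cells, but do not measure whether the genes go together. Over cluster 3 cells, Plvap and Vwf levels had Spearman correlations of -0.28 and -0.20. The clusters were defined from the same counts, and the part of other doublets and of free RNA in these shares was not tested.

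**Figure D3:**
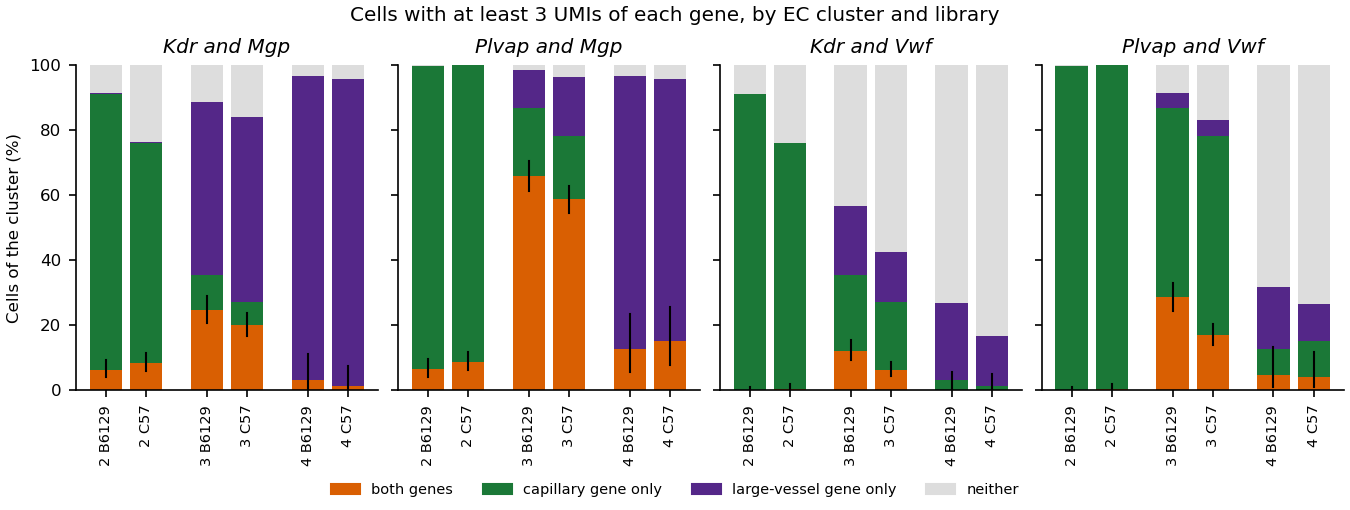
Share of cells (%) with at least 3 UMIs of both genes, of the capillary gene only, of the large-vessel gene only or of neither, for 4 gene pairs in EC clusters 2, 3 and 4; B6129 and C57 stand for the B6129PF1/J and C57BL/6J libraries, and black lines are exact 95% intervals of the share with both. Plvap and Mgp were together in 66.0 and 58.8% of cluster 3 cells and in at most 15.3% of the cells of the other clusters.

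Further pairs with Plvap were counted for Lrg1 and Slco1a4, called above both neighbors, and for Slc2a1, which was higher in cluster 4. Plvap was in 95.8% and 94.0% of cluster 3 cells, so these shares mostly repeat how common the other gene was. For Lrg1 and Slco1a4, a higher share in cluster 3 was fixed by their choice. Lrg1, with or without Plvap, was in 63.7% and 47.5% of cluster 3 cells. Lrg1 was found together with Plvap in 62.1% and 45.2% of cluster 3 cells and without it in 1.63% and 2.37%, against 8.38% and 4.47% with both in cluster 2 and 9.52% and 9.72% in cluster 4. Slc2a1 was found with Plvap in 64.2% and 70.1% and without it in 1.86% and 2.55%, against 21.6% and 32.0% with both in cluster 2 and 34.9% and 23.6% in cluster 4. With at least 3 UMIs of each gene, Slc2a1 and Plvap were together in 41.9% and 44.3% of cluster 3 cells and in at most 8.33% of those of cluster 2 or 4. Slco1a4 was found with Plvap in 54.2% and 61.0% of cluster 3 cells and in at most 12.7% of those of cluster 2 or 4. RPE cells had Slc2a1 at 8.49 and 8.53 and Slco1a4 at 2.67 and 2.55, and the part of free RNA in these shares was not tested.

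Summed over all axis genes, single cells of cluster 3 formed a gradient. The sum of the 56 capillary axis genes had a median of 148 and 136 UMIs per 10,000 in cluster 3 cells, with 90% of cells between 61.8 and 320 and between 55.0 and 317. Its median was 425 and 408 in cluster 2 cells and 23.7 and 26.3 in cluster 4 cells, a gap that the choice of genes fixes. The sum of the 63 large-vessel axis genes had a median of 141 and 140 in cluster 3, 17.8 and 18.4 in cluster 2 and 376 and 368 in cluster 4. Within cluster 3 the sums ran against each other, with Pearson correlations of -0.65 and -0.64 and Spearman correlations of -0.73 and -0.70 over 430 and 549 cells that share a library and a total.

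Limits were set at the 95th percentile of cluster 4 cells for the capillary sum and at the 95th percentile of cluster 2 cells for the large-vessel sum. Of cluster 3 cells, 57.4% (52.6 to 62.2) and 55.9% (51.7 to 60.1) lay above both, 11.6% and 15.8% were above the capillary limit alone and 30.9% and 28.2% above the large-vessel limit alone. By the way the limits were set, only 5.14% and 5.21% of cluster 2 cells and 6.35% and 5.56% of cluster 4 cells lay above both. Without Mgp and Plvap in the sums the shares in cluster 3 were 54.2% and 64.7%.

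**Figure D4:**
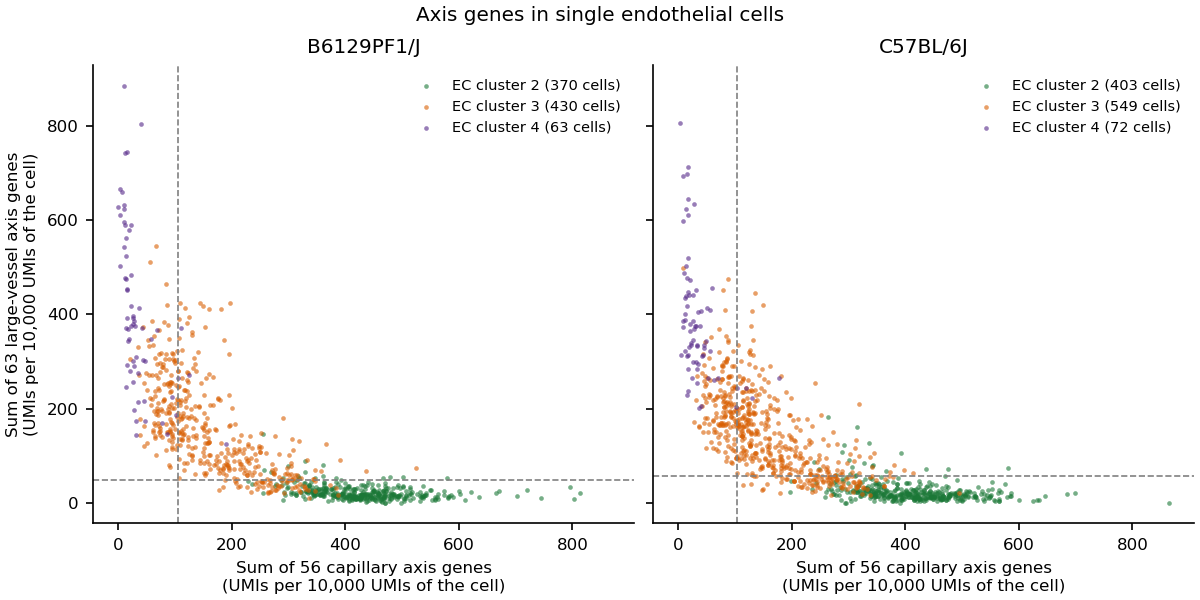
Each point is 1 EC, placed by its summed capillary axis genes and its summed large-vessel axis genes (both in UMIs per 10,000 UMIs of the cell), colored by EC cluster, in the B6129PF1/J (left) and C57BL/6J (right) libraries; dashed lines are the 95th percentile of cluster 4 on the x axis and of cluster 2 on the y axis. Cluster 3 cells run as a band from cluster 2 towards cluster 4, with 57.4 and 55.9% above both lines.

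Kdr itself was uneven among cluster 3 cells. It had 0 UMIs in 153 and 239 cells, or 35.6% (31.1 to 40.3) and 43.5% (39.3 to 47.8), 1 to 2 UMIs in 124 and 161 cells, and 3 or more in 153 and 149. In 79 and 60 cells it had 10 or more UMIs, and those held 74.1% and 61.1% of all Kdr UMIs of the cluster. The classes are ranges of a count, not cell types: 36 and 46 cells had exactly 2 UMIs and 21 and 27 had exactly 3. The classes also differed in depth, with a median of 3380 and 2805 UMIs in cells without Kdr and 8568 and 7347 in cells with 3 or more, so levels below are relative to each class's own UMIs.

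Kdr-rich cells carried more of the capillary genes and fewer of the others. Plvap stood at 36.5 and 38.3 in cells with 3 or more Kdr UMIs and at 16.9 and 18.3 in cells with none, and Flt1 at 19.9 and 17.9 against 10.9 and 8.96. Mgp stood at 25.1 and 20.5 in Kdr-rich cells and at 86.2 and 56.8 in cells without Kdr, Vwf at 2.57 and 1.67 against 6.53 and 4.17, and Lrg1 at 2.35 and 1.72 against 7.16 and 5.59. Even in Kdr-rich cells, Mgp and Vwf were thus higher than in cluster 2, and in cells without Kdr, Plvap was higher than in cluster 4. Cells with 1 to 2 Kdr UMIs lay between for Mgp and Lrg1.

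Of 1732 genes with at least 1 UMI per 10,000 in the higher class, 29 (1.67%) were at least 2 times higher without Kdr and 65 (3.75%) at least 2 times higher with 3 or more UMIs, in both libraries. Of 35 capillary axis genes measured, 20 were in the second group and 0 in the first, and of 23 large-vessel axis genes measured, 13 were in the first and 0 in the second. The largest ratios towards cells without Kdr were of Cytl1 (2.65 and 3.21 against 0.132 and 0.142), Ptgis, the prostacyclin synthase gene (1.05 and 1.01 against 0.162 and 0.157), and Ptn (9.08 and 11.1 against 1.51 and 1.09). Ptprr, Slfn2, Mal, Ctsh (cathepsin H), Rnase4, Lrg1 and Pir complete the 10. Towards Kdr-rich cells they were of Cd300lg, a receptor gene of capillary ECs (1.97 and 2.02 against 0.193 and 0.268), Ednrb, the endothelin receptor B gene (4.10 and 2.79 against 0.737 and 0.510), and Hilpda, a lipid droplet gene (2.62 and 2.76 against 0.509 and 0.389). Timp3, the metalloproteinase inhibitor gene, stood at 48.8 and 38.1 against 8.37 and 7.93, so that in cells without Kdr it was below its 24.4 and 16.8 in cluster 4. Chst2, Gpx3, Tbxa2r, Eml1, Kctd12b and Gng2 complete these 10.

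In cells without Kdr most arterial genes of cluster 4 stayed low. Over the 12 arterial genes among the large-vessel axis genes, their median position was 13.8% and 8.09% of the way from cluster 2 to cluster 4. The interquartile range was 6.59 to 23.6% and 1.82 to 17.1%. The median was still above the 3.32% and 5.18% of Kdr-rich cells. Cells with 1 to 2 Kdr UMIs had 7.11% and 9.44%, so the highest class differed between the libraries. In cells without Kdr, Bmx stood at 0.211 and 0.630 against 2.75 and 3.48 in cluster 4, and Fbln5 at 0.263 and 0.121 against 5.19 and 4.41. Cytl1, also among the 12, had the largest ratio of all genes towards cells without Kdr. Edn1 and Sox17, 2 further members, lay at 43.9% and 38.1% and at 22.6% and 26.3% in cluster 3 as a whole. Over all 63 large-vessel axis genes the median position was 22.5% and 27.0% in cells without Kdr and 9.70% and 9.61% in Kdr-rich cells, while over the 56 capillary axis genes it was 14.8% and 15.1%, against 55.2% and 53.9%, of the way from cluster 4 to cluster 2.

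**Figure D5:**
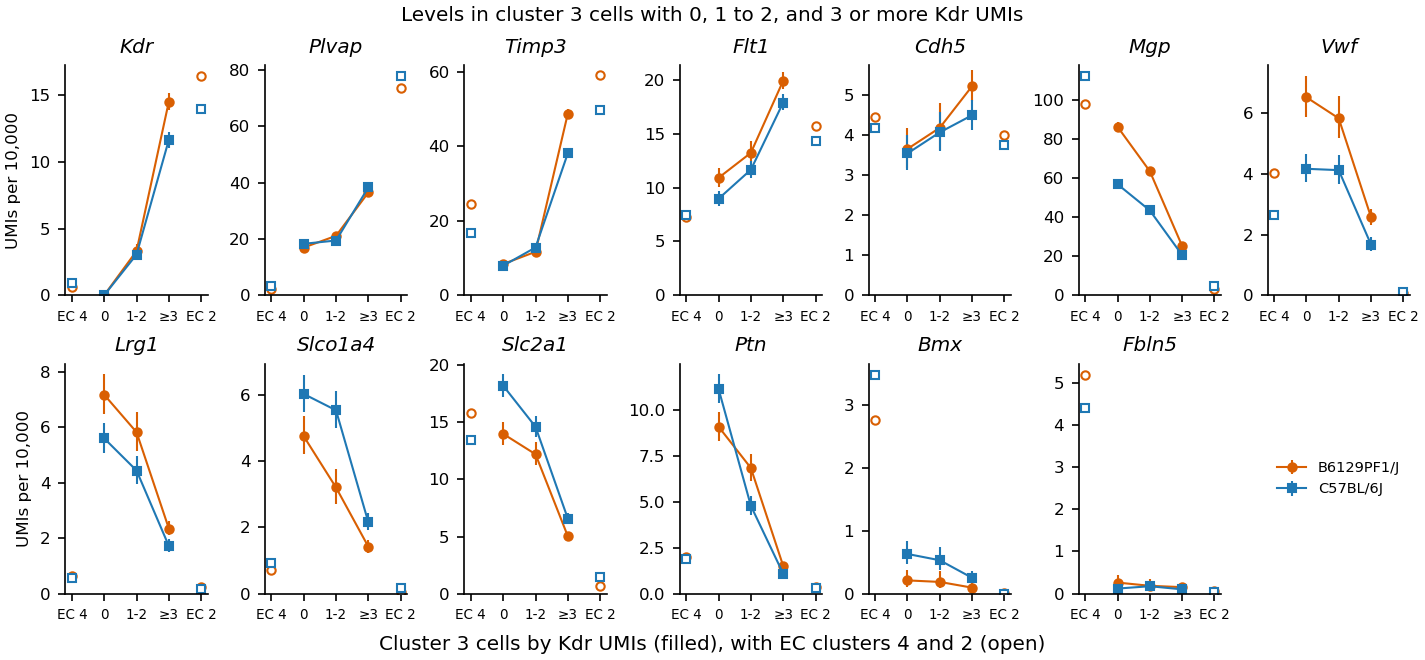
Level (UMIs per 10,000) of 13 genes in cluster 3 cells with 0, 1 to 2 and 3 or more Kdr UMIs (filled, with exact Poisson 95% intervals) beside EC clusters 4 and 2 (open), in both libraries. Plvap and Timp3 are higher and Mgp, Vwf, Lrg1, Slco1a4, Slc2a1 and Ptn lower in the Kdr-rich class, and Bmx and Fbln5 stay far under cluster 4 in every class.

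When every cell was thinned to 1700 UMIs and the classes were set from the thinned counts, the order remained. Cells with 0 thinned Kdr UMIs had Mgp at 76.3 and 51.6 and those with 3 or more at 22.4 and 18.2, Plvap at 19.0 and 21.2 against 34.3 and 38.9, and Lrg1 at 5.93 and 4.93 against 2.18 and 1.92. Over cells, Kdr and Mgp levels had Spearman correlations of -0.48 and -0.38, and Kdr level and depth of 0.47 and 0.43. The part of depth in the Kdr classes was not tested beyond thinning. UMIs of both Xist and Ddx3y were found in 2 and 1 cells without Kdr and in 3 and 3 cells with 3 or more Kdr UMIs.

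Other vascular gene lists were read in the same way, beside the shares over all genes given above. Of 10 genes of hemostasis, 6 were higher than in cluster 2 and 0 lower, with Thbd, the thrombomodulin gene, at 3.08 and 2.81 against 1.84 and 1.25 and Procr, the protein C receptor gene, at 0.841 and 0.612 against 0.362 and 0.285. Of 17 capillary and fenestra genes, 9 were lower than in cluster 2 and 12 higher than in cluster 4. Of 18 matrix genes, 6 were higher and 3 lower than in cluster 2, the former including Eln (elastin) and Ltbp4. Against cluster 4, 5 were higher and 6 lower, Eln and Ltbp4 among the latter. Of 8 genes of VEGF and angiopoietin receptors and ligands, Nrp2 and Vegfc were higher and Kdr, Flt4 and Nrp1 lower than in cluster 2. Of 9 leukocyte adhesion and chemokine genes, 4 were higher than in cluster 2, among them Cxcl12, at 4.35 and 5.55 against 0.782 and 1.42, and Icam1 stood at 2.75 and 3.30 against 0.825 and 1.21 in cluster 4.

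Of 18 pan-endothelial genes, 2 were higher and 4 lower than in cluster 2. Of 11 junction genes, 2 were higher and 2 lower than in cluster 2. Cldn5, the claudin of endothelial tight junctions, stood at 18.8 and 25.1 in cluster 3, near the 23.2 and 21.2 of cluster 2 and under the 49.6 and 49.4 of cluster 4. Of 9 caveolae genes, 2 were higher and 2 lower than in cluster 2, and of 13 BMP and TGF-beta genes, 2 were higher and 1 lower. Of 7 Notch genes, 0 were higher than in cluster 4 and 3 lower. Of 5 shear response genes, 2 were higher than in cluster 2 and 2 lower than in cluster 4, and of 7 genes of lipid and metabolite transport, 4 were higher than in cluster 2, with Tcf15 at 1.65 and 2.69 against 0.541 and 1.12. A list of 21 barrier endothelium genes, put together after values had been seen and so no support for anything, had 11 measured genes, of which 9 were higher and 0 lower than in cluster 2. Among them Abcg2, a drug efflux pump gene, stood at 4.50 and 6.69 against 1.80 and 2.24, and Abcb1a, another, at 2.29 and 2.85 against 0.730 and 0.991. Against cluster 4, 2 of the 11 were higher (Slco1a4 and Lef1) and 3 lower (Sox17, Lsr and Cldn5). The barrier list summed to 50.6 and 66.7 in cluster 3, under the 93.9 and 91.7 of cluster 4.

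Markers of cells outside the vessel wall were low. The summed level of 7 RPE markers was 7.47 and 5.61 in cluster 3, almost wholly from Ttr, at 5.78 and 4.07, against 9.40 and 7.95 in cluster 2 and Ttr levels of 1115 and 1046 in RPE cells. Stromal fibroblast markers summed to 2.48 and 2.50, against 1.19 and 2.14 in cluster 2 and 1.07 and 0.997 in cluster 4. Of these 7 markers only Dcn, the decorin gene, passed the minimum level, at 1.08 and 1.32 against 0.703 and 0.453 in cluster 4 and 171 and 212 in the stromal cluster 7, and it was called higher than in cluster 4. Among the genes of cluster 3 described above, Mgp, Ptn, Tshz2 and Akap12 were highest in stromal clusters in both libraries, and the part of stromal RNA in their levels was not tested. Hematopoietic markers summed to at most 0.148, melanocyte markers to at most 0.124 and Schwann cell markers to at most 0.286. Photoreceptor markers summed to at most 0.0332 and red blood cell markers to at most 0.017.

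The libraries gave much the same profile of cluster 3. Of 1557 genes with at least 1 UMI per 10,000 in both, 97.3% were within 1.5 times of each other. Among 1801 genes at that level in either library, 14 were at least 2 times higher in B6129PF1/J and 7 in C57BL/6J, and 14 of these 21 differed in the same direction in clusters 2 and 4. Any ratio over or under 1 counted for this, also where it rested on few UMIs. In cluster 4, for instance, Gchfr stood at 0.0917 and 0 and Nmb at 0.0917 and 0.0604. Several of the 21 are predicted genes (Gm10709, Gm10116, Gm8797, Gm10036, Gm8730) whose reads may be shared with near-identical copies. Dlk1, an imprinted gene, stood at 2.52 in B6129PF1/J and 0.111 in C57BL/6J in cluster 3, and at 16.2 and 4.53 in cluster 2, with UMIs in 6.51% and 1.28% of cluster 3 cells. Fabp4, a fatty acid binding protein gene, stood at 1.62 and 4.35, with UMIs in 4.19% and 5.10%.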

How the data were processed

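The UMI count of each gene in each cell was made and deposited by the authors (Cell Ranger, mm10; Seurat 2.1, clusters at resolution 0.8). Their methods set limits of at least 1700 UMIs, at least 600 genes and at most 10% mitochondrial UMIs per cell; applied again, these removed 0 of the 7565 deposited cells. The files hold fewer cells than the study states. Count totals and the mitochondrial fraction per cell were deposited by the authors and matched the counts. Cluster numbers are the deposited ones; no cell was clustered again and no doublet removed. Authors' cluster averages, fold changes and p-values, and the bulk tables, were not used.

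Members and gene lists were chosen with earlier results of these data known. Counts were summed per cluster and library (16426 genes; pandas 2.3.3 and scipy 1.17.1 under Python 3.11.15). A count of 0 was set at 3 in ratios. The rules were tested on simulated data. Genes named are the markers, Kdr and Plvap, the 15 highest above and up to 10 below both neighbors, the 10 most abundant axis genes each way, the 10 largest Kdr class ratios each way, and members of lists as examples. Which list members and other genes to name (Tgm2, Dlk1, Fabp4 and the predicted genes among them) was chosen after values were seen. A gene called above both neighbors is not reported here by name. Coordinates are GENCODE vM21 on GRCm38, the assembly mm10 names. Alternatives were thinning to 1700 UMIs, equal weight per cell, other thresholds, and leaving out cells.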

Additional observations from a re-analysis of the deposited data

Results flagged for a closer look

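Ctla2a was flagged because its cluster 3 level lay on opposite sides of cluster 2 in the libraries. Its ratio was 0.918 (0.876 to 0.961) for B6129PF1/J against 1.15 (1.104 to 1.21) for C57BL/6J. It was not alone in this: Flt1, Cldn5 and Sema3g, among others, also changed sides. Flt1 stood at 16.5 against 15.7 in B6129PF1/J and at 13.9 against 14.4 in C57BL/6J. With 1 library per strain these differences were not tested.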

How the results depend on the processing

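No paired analysis was possible because no result comes from a test: all 3 clusters were measured in both libraries, but they were defined from the same counts, and each strain has 1 library. The number of axis genes followed the thresholds: with 3 times in place of 5, 103 capillary and 103 large-vessel genes; with 10 times, 30 and 40; with a minimum of 0.5, 85 and 102; with a minimum of 2, 33 and 33; and on means of ln(1 + UMIs per 10,000), 14 and 12, of which cluster 3 lay between for 100% and 100%. Genes above both neighbors came to 60 at 1.2 times, 8 at 2 times, 43 with a minimum of 0.5 and 10 with a minimum of 2, and genes below both to 41 at 1.2 times and 0 at 2 times. Of the 19 genes above both, 16 were kept after thinning, 18 with equal weight per cell and 16 without the deepest 10% of cells. Plvap and Mgp were found together in 77.2% and 70.9% of cluster 3 cells at 2 UMIs each, 66.0% and 58.8% at 3, and 72.8% and 70.1% after thinning. Cells without Kdr were 54.0% and 61.7% after thinning; 4.19% and 6.01% had no Plvap UMI. Split by Plvap in place of Kdr, with 18 and 33 cells at 0 UMIs, the ratio turned for Lrg1 in B6129PF1/J (0.862) and for Vwf in C57BL/6J (0.721), and so did the order of Slco1a4 (1.94 against 2.35; 3.20 against 3.73) and Cytl1 (0.352 against 1.01; 0.732 against 1.22) in both libraries, of Ptn in B6129PF1/J (2.82 against 4.13) and of Slc2a1 in C57BL/6J (8.05 against 11.05); the cause was not tested. Without Mgp and Plvap, 64.7% of C57BL/6J cells lay above both axis limits. Leaving out these genes, the deepest 10% of cells or shared barcodes was chosen after seeing the data. Leaving out cells with Xist and Ddx3y moved none of the 120 named gene levels outside their intervals, while equal weight per cell moved 94 and thinning 95. Cluster 4, with 63 and 72 cells, limits the precision of ratios to it.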

Other observations

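Genes that respond to handling or cytokines were also uneven among the EC clusters. Of 14 immediate-early genes, which are switched on within minutes of a stimulus such as tissue digestion, 7 were higher in cluster 3 than in cluster 2 and 0 lower, and 0 were higher than in cluster 4 and 2 lower. Fos stood at 39.5 and 41.6 in cluster 3, 24.4 and 21.6 in cluster 2 and 54.5 and 62.2 in cluster 4, and Egr1 at 16.3 and 13 against 7.48 and 5.30 in cluster 2. All clusters of a library came from 1 digestion, and its part in these levels was not tested.

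Of 8 interferon-stimulated genes, 5 were higher in cluster 3 than in cluster 2 and 0 lower, and 0 were higher and 3 lower than in cluster 4 (Isg15, Ly6a and Ly6c1). Isg15, a ubiquitin-like modifier gene, stood at 1.78 and 3.46 against 0.604 and 0.942 in cluster 2 and 2.84 and 5.65 in cluster 4. Iigp1, an interferon-inducible GTPase gene, stood at 2.03 and 3.23 in cluster 3 against 0.115 and 0.411 in cluster 2 and 0.519 and 2.57 in cluster 4. Of 8 antigen presentation genes, 2 were higher than in cluster 2 and 0 lower, and 0 differed by 1.5 times from cluster 4. Of 10 cell cycle genes only 1 passed the minimum level, and the list summed to 0.783 and 1.04 UMIs per 10,000 in cluster 3. Of 7 lymphatic genes only Flt4 passed it, at 0.904 and 0.635 against 1.36 and 1.08 in cluster 2 and 0.244 and 0.272 in cluster 4.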
